A study of Mus musculus with 79 samples.

Results

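The CXC chemokines described here are 9 genes, Cxcl1, Cxcl2, Cxcl3, Cxcl5, Cxcl9, Cxcl10, Cxcl12, Cxcl14 and Cxcl16, taken by symbol from the 3 count tables of a mouse nerve repair study, and all 9 were present among the 23361 genes listed. In each mouse a fresh common peroneal nerve was joined through a silicone conduit to the tibial stump, either at once (immediate repair, with a sham incision 8 weeks before) or 8 weeks after the tibial branch had been cut (delayed repair), and tissue was collected 5 or 14 days after the graft. Macrophages and Schwann cells were sorted from the regenerative bridge (1000 cells per library), and the distal stump was taken whole at day 5. Counts are from 79 libraries of 32 animals, made up of 16 stump libraries (9 delayed and 7 immediate), 32 of macrophages (9 and 8 collected on day 5, 7 and 8 on day 14) and 31 of Schwann cells (9 and 7 on day 5, 7 and 8 on day 14). All mice expressed green fluorescent protein under the human S100β promoter, single bridges were not pooled, each group held animals of both sexes (4 males and from 3 to 5 females), and no age was given in the sources used here. Macrophages were gated on F4/80, CD14, CD16/32 and CD11b, while Schwann cells were gated as fluorescent cells negative for those markers and for other lineage markers, among them Ly6G, Siglec F, CD3e, Thy1.2, CD31 and Ter119, a set that holds no dendritic cell marker. The tables cannot separate fewer cells of a type from less RNA per cell in these bulk libraries.

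CXC chemokines are small secreted proteins that steer leukocytes along gradients through G protein coupled receptors. Cxcl1, Cxcl2, Cxcl3 and Cxcl5 carry the ELR motif and draw neutrophils through Cxcr2, and Cxcl9 and Cxcl10 are interferon-inducible ligands of Cxcr3 on activated T cells and natural killer cells. Cxcl12 (SDF-1), a stromal ligand of Cxcr4 and of the scavenging receptor Ackr3 (listed as Cxcr7), and Cxcl14 are made without inflammatory stimulus in many tissues, while Cxcl16 is made as a transmembrane protein that binds Cxcr6 and can be shed from the cell surface by ADAM10 and ADAM17. In injured nerve these ligands are known as signals made by macrophages, fibroblasts, endothelium and Schwann cells.

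Upstream sequence was matched in RefSeq for 7 of the 9 members. Shown are the 250 bases before the RefSeq start of 5 of them, because Cxcl1, Cxcl2 and Cxcl3 were all lower in macrophages at day 14 than at day 5 after immediate repair and because Cxcl9 and Cxcl10 form the interferon-inducible pair. Coordinates are on GRCm38.p6. Cxcl1 (chr5:90890995-90891244), Cxcl2 (chr5:90903649-90903898) and Cxcl3 (chr5:90785851-90786100) lie on the plus strand, and Cxcl9 (chr5:92328080-92328329) and Cxcl10 (chr5:92348890-92349139) on the minus strand of the same chromosome. Each is printed 5′ to 3′ with capitals for matches, on either strand, to GGNNNTTCC (an NF-kB-like motif) or to GAAANNGAA (an interferon response-like motif).
Cxcl1: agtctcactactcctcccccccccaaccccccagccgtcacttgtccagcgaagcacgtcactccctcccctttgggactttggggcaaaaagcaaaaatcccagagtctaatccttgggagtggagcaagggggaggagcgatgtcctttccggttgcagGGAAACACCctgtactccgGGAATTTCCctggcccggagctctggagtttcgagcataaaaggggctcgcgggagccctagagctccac
Cxcl2: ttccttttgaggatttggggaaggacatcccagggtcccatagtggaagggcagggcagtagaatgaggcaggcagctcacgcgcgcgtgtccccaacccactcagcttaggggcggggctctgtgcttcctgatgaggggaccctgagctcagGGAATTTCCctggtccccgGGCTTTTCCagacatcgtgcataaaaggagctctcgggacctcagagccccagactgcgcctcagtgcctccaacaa
Cxcl3: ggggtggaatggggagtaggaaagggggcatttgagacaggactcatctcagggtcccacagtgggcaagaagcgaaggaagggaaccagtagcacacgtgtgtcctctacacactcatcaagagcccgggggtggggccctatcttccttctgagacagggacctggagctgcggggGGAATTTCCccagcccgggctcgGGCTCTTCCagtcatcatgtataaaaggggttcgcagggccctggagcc
Cxcl9: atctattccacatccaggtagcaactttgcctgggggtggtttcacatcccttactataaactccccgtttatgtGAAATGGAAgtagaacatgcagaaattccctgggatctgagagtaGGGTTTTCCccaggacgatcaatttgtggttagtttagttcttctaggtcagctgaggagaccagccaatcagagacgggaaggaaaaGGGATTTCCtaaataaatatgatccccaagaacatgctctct
Cxcl10: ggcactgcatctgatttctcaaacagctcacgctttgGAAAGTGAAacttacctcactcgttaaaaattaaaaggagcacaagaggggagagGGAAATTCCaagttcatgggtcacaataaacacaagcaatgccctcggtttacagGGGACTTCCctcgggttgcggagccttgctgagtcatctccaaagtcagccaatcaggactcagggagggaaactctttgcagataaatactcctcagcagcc
The NF-kB-like letters were present in all 5 of these windows and in 15.7% of all 32851 promoter windows of the same length. In Cxcl1, Cxcl2 and Cxcl3 the same 9 letters, GGAATTTCC, lay 70, 96 and 72 bases before the start, and they match the pattern on both strands. The GAAANNGAA letters were found in Cxcl9, Cxcl10 and Cxcl14, against 7.13% of all windows. Cxcl12 and Cxcl14 held no GGNNNTTCC match in their windows. A match is a string of letters and not a measured binding site. Cxcl5 and Cxcl16 were not matched.

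The labels were checked against marker genes. Macrophage libraries held 16913 to 36621 CPM (read counts scaled to a common library size by TMM) summed over 8 macrophage markers and 2.25 to 34.4 CPM over 8 Schwann cell markers. Libraries labelled Schwann cell held 154 to 2650 CPM of those Schwann cell markers, but 12626 to 39948 CPM over 8 dendritic cell markers and 291 to 9731 CPM over the macrophage markers, so they are called the Schwann fraction below. Their sum of 6 fibroblast markers ranged from 17 to 16066 CPM, and 2 of the 31, immediate replicates 3 and 5 of day 14, held 8454 and 2031 CPM of neutrophil markers against 2.36 to 97.4 CPM in all others. Total counts per library ran from 14928745 to 28499407 in macrophages, 11614940 to 30796823 in the Schwann fraction and 3898778 to 9212709 in the stump, so that 3 counts correspond to at most 0.201, 0.258 and 0.769 CPM in the 3 kinds of library. Stump libraries were made with a different kit from the sorted cells, and no level was tested between the 2 kinds.

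Among the sorted cells, macrophages of day 5 carried the highest level of any member. Per kilobase of exon, the mean level of Cxcl2 was 8709 CPM after immediate and 5913 CPM after delayed repair. It was followed in the same libraries by Cxcl1 (2818 and 2533 CPM per kilobase) and Cxcl3 (957 and 554). Next came Cxcl16, at 197 and 187 CPM per kilobase. Cxcl5, at 87.8 and 44.4, and Cxcl10, at 48.2 and 38.3, stood lower, and Cxcl14, Cxcl12 and Cxcl9 were each below 5 CPM per kilobase. In the Schwann fraction of day 5 the leading member per kilobase was Cxcl16 after immediate repair (503 CPM per kilobase, against 408 for Cxcl2) and Cxcl2 after delayed repair (772 against 511 for Cxcl16). At day 14 Cxcl2 still led in macrophages (3253 CPM per kilobase after immediate and 3747 after delayed repair), while in the Schwann fraction Cxcl16 (210 and 196), Cxcl2 (194 and 247) and Cxcl1 (133 and 221) were close together. The stump had another order, led by Cxcl5 (54.5 CPM per kilobase after immediate and 75.2 after delayed repair) and Cxcl12 (32.6 and 61.3, or 47.4 and 89.1 by the longest transcript, which puts it first after delayed repair), with Cxcl14 (31.5 and 39.8) and Cxcl16 (19.5 and 41.0) next and Cxcl1, Cxcl2, Cxcl3, Cxcl9 and Cxcl10 each below 20 CPM per kilobase. In the stump and in the Schwann fraction of day 5, the ranges over libraries of all 8 pairs of neighbours in these orders overlapped. In macrophages of day 5, 3 of 8 pairs in each repair group did not overlap, among them Cxcl16 and Cxcl5 in both and, after immediate repair, Cxcl3 (at least 408 CPM per kilobase) and Cxcl16 (at most 229). At day 14 the lowest Cxcl2 of macrophages lay above the highest Cxcl1 in both repair groups. All further levels are CPM per gene, not divided by length, and compare 1 gene between libraries only.

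**Figure D1:**
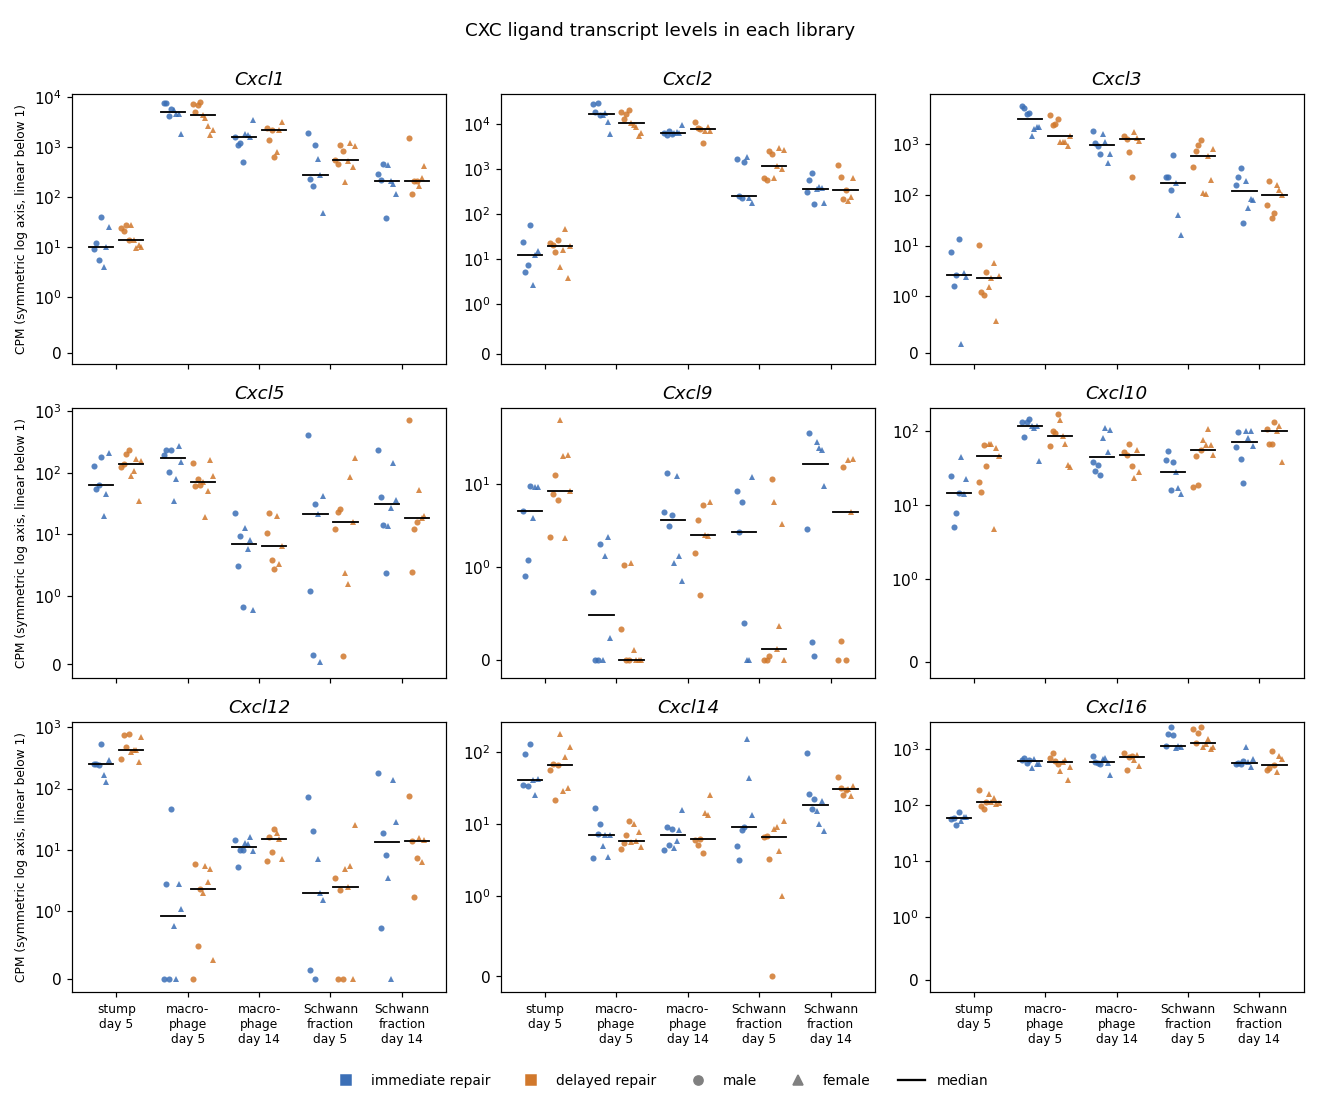
Levels of the 9 members in each library, in CPM on a symmetric log axis that is linear below 1, for the distal stump, macrophages and Schwann fraction at day 5 and 14, with immediate repair in blue, delayed repair in orange, circles for males, triangles for females and bars for medians. Among the sorted cells Cxcl1, Cxcl2 and Cxcl3 are highest in macrophages of day 5, and the delayed and immediate stump libraries do not overlap for Cxcl16. Stump and sorted libraries were made with different kits and scaled apart, so their levels are not compared.

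The first question of the design was whether delay changed the members in the distal stump at day 5. Cxcl16 and Cxcl12 were higher after delayed repair, and the other 6 members tested did not pass. Against a background of 12.8% of 12229 genes higher and 13.5% lower, 2 of the 8 members tested were higher and 0 lower. All 8 had fitted log2 fold changes above 0 (median 0.69, against 0.02 over all genes), a sign that Cxcl2 lost in males alone and without any 1 of 3 libraries, and Cxcl14 in males alone and in 1 other fit. Cxcl3, the 9th member, had too few counts to be tested, at 0.557 to 10.2 CPM after delayed and 0.158 to 13.5 CPM after immediate repair.

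Cxcl16 stood at 86.9, 116 and 187 CPM (lowest, median and highest of 9 libraries) after delayed repair and at 44.5, 58.6 and 75.9 CPM (of 7) after immediate repair. Every delayed library was above every immediate library, as was so, in either direction, for 4.68% of all genes tested. The means were 124 ± 31.5 and 59.0 ± 9.62 CPM (SD), and the log2 fold change was 1.07 (SE 0.15, edgeR quasi-likelihood adjusted p = 8.23e-05). Within males it was 1.03 (adjusted p = 0.035) and within females 1.07 (adjusted p = 0.0115), both fitted after the data were seen. Reads of Cxcl16, which spans chr11:70453983-70459984 on the minus strand of GRCm38, are shared over 552 bases with the start of the neighbouring gene Zmynd15 on the other strand (the stump kit was directional, and the study's methods give a strand-specific setting, where it applied, for mapping and quantification).

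Cxcl12 ranged from 275 to 768 CPM (median 425) after delayed and from 126 to 542 CPM (median 250) after immediate repair. The groups overlapped through 2 immediate libraries, replicate 4 at 542 CPM and replicate 8 at 289 CPM, while the other immediate libraries were at or under 250 CPM. The log2 fold change was 0.91 (SE 0.28, edgeR adjusted p = 0.0237), and 9 of 9 delayed libraries were above the immediate mean. The call was lost without immediate replicate 2 (adjusted p = 0.0515) or immediate replicate 6 (adjusted p = 0.0583), and within either sex (males 0.81, adjusted p = 0.179, females 1.19, adjusted p = 0.0795).

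Of the interferon-inducible pair, Cxcl10 was at 4.80, 46.2 and 66.6 CPM (lowest, median, highest) after delayed and 5.08, 14.7 and 44.8 CPM after immediate repair, while Cxcl9 was at 2.23, 8.24 and 59.4 CPM against 0.912, 4.74 and 9.59 CPM. The groups overlapped for both, with 5 of 9 delayed libraries above every immediate library for Cxcl10 and 4 of 9 for Cxcl9. Their log2 fold changes were 1.12 (SE 0.49, edgeR adjusted p = 0.0976) and 1.49 (SE 0.64, adjusted p = 0.0938), and Cxcl10 passed without delayed replicate 7 (1.26, edgeR adjusted p = 0.0328) or without immediate replicate 6 (1.47, adjusted p = 0.0423). Of the ELR ligands, Cxcl1 was at a log2 fold change of 0.20 (SE 0.41), Cxcl2 at 0.15 (SE 0.54) and Cxcl5 at 0.46 (SE 0.43), and their adjusted p ran from 0.452 to 0.864 in edgeR. Cxcl14 had 0.34 (SE 0.43, adjusted p = 0.60).

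Among the receptors, 2 of 6 tested were higher in the delayed stump, as were 12.8% of all genes (13.5% were lower). The 2 were Cxcr4, the receptor of Cxcl12, at a log2 fold change of 0.88 (SE 0.22, edgeR adjusted p = 0.00847), and Cxcr6, the receptor of Cxcl16, at 0.67 (SE 0.23, adjusted p = 0.0351). Cxcr2 (0.34), Cxcr3 (0.75), Cxcr7 (-0.49) and Darc (0.27), a chemokine-binding protein of endothelium and red cells, did not pass. Of 5 processing enzymes, the sheddase Adam10 was lower, at -0.38 (SE 0.11, adjusted p = 0.0201), and Adam17, Dpp4, Mmp9 and Mmp2 did not pass. Several cell type markers moved in the same libraries. After delayed repair the sum of 6 endothelial markers was 1108 to 1578 CPM against 680 to 946 CPM, of 5 mural markers 763 to 1107 against 587 to 772 CPM (3 called higher and Cspg4 lower, at -0.67), of 8 macrophage markers 3115 to 5154 against 1311 to 5061 CPM and of 8 dendritic cell markers 611 to 1100 against 411 to 803 CPM. The sum of T cell markers was 4.83 to 24.1 against 0.781 to 15.1 CPM, and Lck, the 1 tested, was called higher (1.27). Schwann cell markers were 101 to 607 CPM against 1003 to 2421 CPM, with 7 of 7 tested lower. The 10 genes listed as dissociation response summed to 480 to 1050 CPM against 845 to 1343 CPM, though the stump was taken whole and not sorted. Of these, Jun (-0.77) and Atf3 (-1.86) were called lower, while 6 of the 9 tested had fitted values above 0 (median 0.21) and none of those passed. The part of these markers in the values of the ligands and receptors was not tested.

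**Figure D2:**
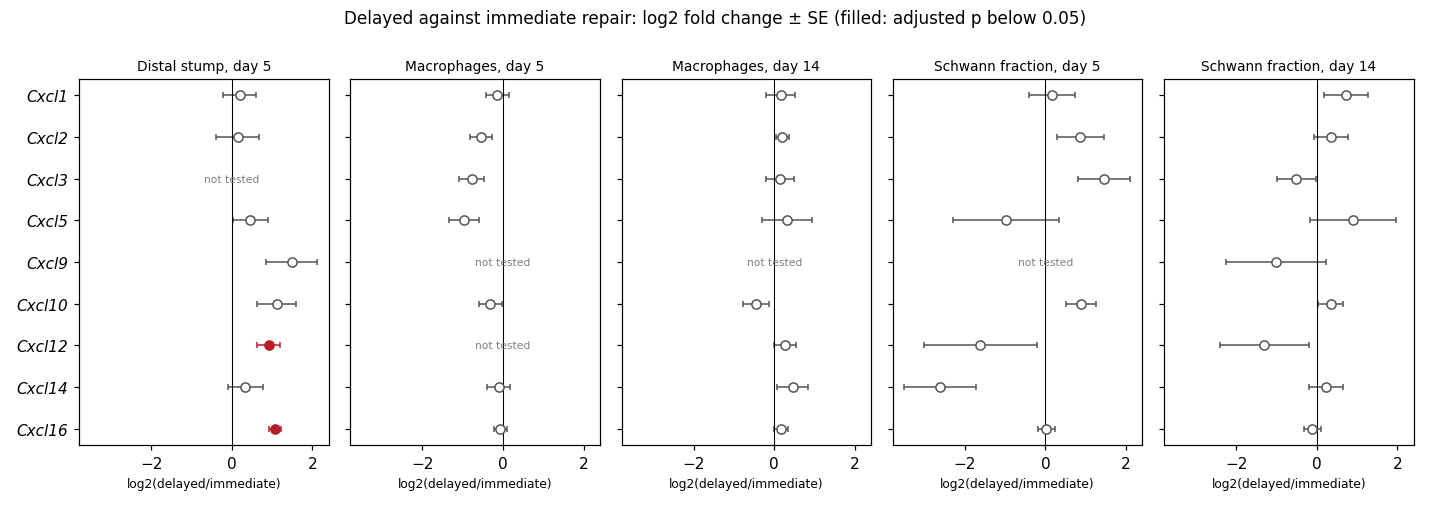
Log2 fold change of each member after delayed against immediate repair, with 1 SE, in the distal stump, macrophages and Schwann fraction, with filled points for an edgeR adjusted p below 0.05. Cxcl12 (0.91) and Cxcl16 (1.07) in the stump are the 2 filled points.

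In macrophages at day 5, none of the 7 members tested passed between delayed and immediate repair in edgeR (background 0.0357% of 8409 genes called), with 2 at an unadjusted p under 0.05, as were 5.17% of all genes, and 0 called by DESeq2. All 7 fitted values were below 0 (median -0.32, against 0.01 over all genes), although those of Cxcl1 (-0.15), Cxcl14 (-0.11) and Cxcl16 (-0.06) turned above 0 in at least 1 alternative. Cxcl9 (0 to 2.32 CPM) and Cxcl12 (0 to 45.9 CPM) were too low to be tested. Of the ELR ligands, Cxcl5, Cxcl3 and Cxcl2 had the values farthest from 0. Cxcl5 was at 19.0, 71.2 and 162 CPM after delayed and 34.6, 172 and 275 CPM after immediate repair, at -0.97 (SE 0.37, unadjusted p = 0.0178, adjusted p = 0.817). Cxcl3 was at 908, 1430 and 3828 CPM against 1426, 3090 and 5736 CPM, at -0.78 (SE 0.31, unadjusted p = 0.0204, adjusted p = 0.84). Cxcl2 was at 5370, 10579 and 20650 against 6183, 16967 and 29763 CPM, at -0.55 (SE 0.28, adjusted p = 0.947). The groups of all 3 overlapped. In the same libraries 12 genes listed as NF-kB inducible summed to 6752 to 22197 CPM after delayed and 10498 to 29356 CPM after immediate repair. The sum of 8 macrophage markers was 16913 to 32260 against 25204 to 36621 CPM. For 10 dissociation response genes it was 5428 to 9245 against 5135 to 8054 CPM, and for 6 endothelial markers 40.3 to 80.8 against 27.3 to 66.7 CPM. None of those tested passed in edgeR, and their part was not tested.

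The macrophage libraries of day 5 also differed by sex, as described below, and Cxcl3 was lower after delay within each. In males it was 2428 to 3828 CPM after delayed (n = 4) and 3976 to 5736 CPM after immediate repair (n = 4), without overlap (3.46% of 8409 genes), and in females 908 to 1430 CPM (n = 5) and 1426 to 2203 CPM (n = 4), overlapping by 1 pair of libraries at the edge. With sex in the model the log2 fold change was -0.73 and passed (edgeR adjusted p = 0.0203). In fits of 1 sex alone it was -0.69 in males (adjusted p = 0.62) and -0.77 in females (adjusted p = 0.625), neither of which passed.

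At day 14, none of 8 members tested passed between delayed and immediate macrophages in edgeR, where 0% of 8589 genes were called (190 at an unadjusted p under 0.05, of which 0 were members, and 0 genes with DESeq2). Cxcl2, for example, was at 3838, 7902 and 11157 CPM after delayed and 5762, 6306 and 9389 CPM after immediate repair (0.20, SE 0.16), and Cxcl16 at 426, 714 and 873 against 346, 580 and 772 CPM (0.17, SE 0.17). In the Schwann fraction, 0% of 9604 genes at day 5 and 0% of 10226 at day 14 were called by edgeR, no member among them. DESeq2 called 14 and 3 genes, 0 of them members. Of the 505 genes with an unadjusted p under 0.05 at day 5, 3 were members, namely Cxcl3 (1.44, SE 0.64), Cxcl10 (0.88, SE 0.38) and Cxcl14 (-2.62, SE 0.89). In the same libraries of day 5, 8 of 8 macrophage markers had fitted values above 0 (median 1.49, summed levels of 361 to 9731 CPM after delayed and 291 to 3854 CPM after immediate repair), as did 2 of 2 neutrophil markers tested (median 1.38). All 7 Schwann cell markers tested were below 0 (median -1.70, 154 to 423 against 205 to 1144 CPM), as were all 5 fibroblast markers tested (median -0.76, 17 to 3580 against 308 to 8353 CPM). None of these markers passed, and their part in the values of the members was not tested. At day 14 there were 373 such genes and 0 members. Cxcl14 at day 5 was 3.16 to 154 CPM after immediate repair (median 9.29) and 0 to 11.2 CPM after delayed repair (median 6.60), so that 2 immediate libraries, at 154 and 43.1 CPM, were far above all others.

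Between day 5 and day 14, which used different animals, Cxcl1 and Cxcl5 fell in macrophages of both repair groups, and Cxcl2 and Cxcl3 in those of immediate repair. After immediate repair 4 of 8 members tested were lower at day 14 and 0 higher, against a background of 6.01% of 8507 genes lower and 5.33% higher. After delayed repair 2 were lower and 1 higher, against 3.13% of 8529 genes lower and 3.28% higher. In the same libraries dendritic cell markers summed to 1169 to 3349 CPM at day 5 and 7104 to 12625 CPM at day 14 after immediate repair, and to 1827 to 4177 and 5497 to 14828 CPM after delayed repair, without overlap and with 2 of 4 tested called higher in both. Neutrophil markers summed to 19.1 to 89.1 and 12.6 to 22.5 CPM, and to 13.8 to 72.0 and 9.66 to 29.8 CPM, and the 1 tested was lower in both. Dissociation response genes summed to 5135 to 8054 and 4146 to 6486 CPM after immediate repair (2 of 10 called lower) and to 5428 to 9245 and 4261 to 6732 CPM after delayed repair (0 called). Endothelial markers summed to 27.3 to 66.7 and 19.8 to 41.6 CPM, and to 40.3 to 80.8 and 23.6 to 36.7 CPM, with Pecam1 called lower in both. Of 8 macrophage markers, 3 were lower and 1 higher after immediate repair and 1 lower after delayed repair. The part of these genes in the changes of the members was not tested.

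Cxcl5 fell most. It was 34.6, 172 and 275 CPM at day 5 and 0.793, 6.95 and 22.4 CPM at day 14 after immediate repair, with no overlap (2.25% of genes), at a log2 fold change of -4.34 (SE 0.58, edgeR adjusted p = 0.00011). After delayed repair it went from 19.0, 71.2 and 162 CPM to 2.73, 6.48 and 22.1 CPM, with 5 of 7 libraries of day 14 below every library of day 5, at -3.05 (SE 0.50, adjusted p = 0.00109). The call held within each sex in both repair groups, with values from -4.34 to -2.96.

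Cxcl1 went from 1860, 5111 and 7657 CPM at day 5 to 510, 1622 and 3473 CPM at day 14 after immediate repair (-1.63, SE 0.30, edgeR adjusted p = 0.00174). Cxcl2 went from 6183, 16967 and 29763 CPM to 5762, 6306 and 9389 CPM (-1.37, SE 0.23, adjusted p = 0.000641). Cxcl3 went from 1426, 3090 and 5736 CPM to 425, 976 and 1805 CPM (-1.67, SE 0.31, adjusted p = 0.00179). For each, every library of day 14 was below the mean of day 5, and 7, 2 and 6 of the 8 were below every library of day 5 for Cxcl1, Cxcl2 and Cxcl3. After delayed repair, Cxcl1 went from 1793, 4402 and 8088 CPM to 642, 2188 and 3245 CPM (-1.34, SE 0.35, adjusted p = 0.0279), a call lost without any 1 of 3 libraries (delayed replicates 2 and 6 of day 14 and 3 of day 5, adjusted p from 0.0534 to 0.0626). In females alone none of these calls held (adjusted p from 0.154 to 0.475), while in males alone all 4 did (adjusted p from 0.000971 to 0.0234). Cxcl2 (-0.64, SE 0.26, adjusted p = 0.148) and Cxcl3 (-0.75, SE 0.36, adjusted p = 0.226) did not pass after delayed repair. An interaction term asked whether the repair groups differed in these changes, and edgeR called 0 of 8 members in it (background 0.0223% of 8949 genes, 0 members by DESeq2). Cxcl2, at 0.75 (SE 0.35), was the single member with an unadjusted p under 0.05 in edgeR.

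The remaining members of the macrophages had lower levels or smaller differences between days. Cxcl10 went from 39.6, 115 and 145 CPM to 25.3, 44.5 and 109 CPM after immediate repair (-0.85, SE 0.31, edgeR adjusted p = 0.0829), and from 32.9, 83.7 and 169 CPM to 22.8, 46.6 and 65.7 CPM after delayed repair (-0.98, SE 0.31, adjusted p = 0.0643). It passed in both with DESeq2 (adjusted p = 0.028 and 0.0147) and with sex as a covariate (0.0344 and 0.0382). After immediate repair Cxcl10 was at -1.87 in males alone (edgeR adjusted p = 0.000971) and at -0.13 in females alone (adjusted p = 0.901). After delayed repair it was at -1.01 in either sex alone and did not pass (adjusted p = 0.113 and 0.218). Cxcl12 rose after delayed repair, from 0 to 5.90 CPM (median 2.32) to 6.51 to 21.7 CPM (median 15), without overlap (1.56% of genes), at 2.34 (SE 0.60, adjusted p = 0.0223). After immediate repair Cxcl12 was 0 to 45.9 CPM at day 5 (median 0.926) and 5.30 to 16.0 CPM at day 14 (median 11.2), at 0.82 (SE 0.96, adjusted p = 0.642, and 2.71 with DESeq2, adjusted p = 0.0297). Without the library of 45.9 CPM, immediate replicate 4 of day 5, it was 3.48 (adjusted p = 0.00448). Beside this, the fibroblast marker sum of macrophage libraries was 4.80 to 348 CPM at day 5 and 25.6 to 240 CPM at day 14 after delayed repair. After immediate repair it was 2.84 to 422 and 41.8 to 1228 CPM. No fibroblast marker tested passed after delayed repair (edgeR adjusted p from 0.0819 to 0.968). The part of those markers was not tested. Cxcl16 stayed between 287 and 873 CPM in all macrophage groups, with log2 fold changes of 0.04 (SE 0.13) and 0.27 (SE 0.19) between days. Cxcl14 was at 0.08 (SE 0.33) after immediate and 0.64 (SE 0.34, edgeR adjusted p = 0.289) after delayed repair. In females alone the delayed value was 1.38 (adjusted p = 0.0237). Cxcl9, too low to be tested, was 0 to 2.32 CPM at day 5 and 0.698 to 13.7 CPM at day 14.

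Other genes of the system also differed between the days. Of 2 further CXC ligands tested in macrophages, Pf4 (Cxcl4) and Ppbp (Cxcl7), both were lower at day 14, Pf4 at -1.87 (SE 0.18) after immediate and -1.63 (SE 0.15) after delayed repair and Ppbp at -4.41 (SE 0.45) and -4.01 (SE 0.50), all past the edgeR threshold. Mmp9, a protease that trims ELR ligands, was the only 1 of 3 processing enzymes tested that passed, at -2.98 (SE 0.32) and -3.54 (SE 0.49). All 12 NF-kB inducible genes of a hand-written list (Tnf, Il1b, Ptgs2 and others) were lower at day 14 after immediate repair (median -1.38, against 0.01 over all genes) and 4 of 12 after delayed repair (median -0.57).

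**Figure D3:**
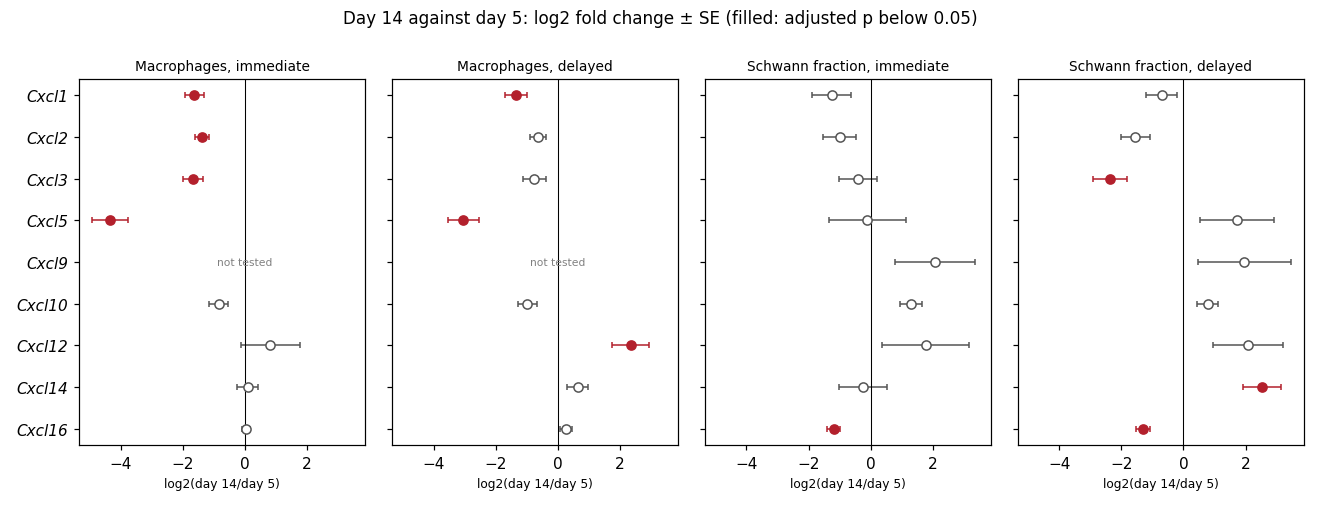
Log2 fold change of each member between day 14 and day 5, with 1 SE, in macrophages and the Schwann fraction of each repair group, with filled points for an edgeR adjusted p below 0.05. In macrophages Cxcl1 and Cxcl5 are filled on the left in both repair groups, and in the Schwann fraction Cxcl16 is.

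In the Schwann fraction Cxcl16 fell between the days in both repair groups. It went from 1055, 1165 and 2472 CPM to 479, 579 and 1081 CPM after immediate repair (-1.19, SE 0.22, edgeR adjusted p = 0.00863), overlapping through 1 library of day 14 at 1081 CPM. It went from 991, 1302 and 2448 CPM to 396, 521 and 913 CPM after delayed repair (-1.30, SE 0.23, adjusted p = 0.00806), with no overlap (1.37% of genes). Over the same days the dissociation response genes went from 6382 to 21809 CPM to 4599 to 8969 CPM after immediate and from 5422 to 20163 CPM to 3394 to 7580 CPM after delayed repair. Dendritic cell markers went from 19899 to 39948 CPM to 15401 to 33613 CPM and from 17862 to 37040 CPM to 12626 to 29198 CPM. The part of these genes in the fall of Cxcl16 was not tested. Cxcl16 was the single member of 9 tested that was called after immediate repair, in which 3.1% of 10016 genes were lower and 0.719% higher. After delayed repair 2 members were lower and 1 higher, with 4.75% of 9961 genes lower and 3.34% higher. Cxcl3 was lower, going from 102, 583 and 1227 CPM to 34.3, 99.9 and 184 CPM (-2.36, SE 0.54, adjusted p = 0.0176). Cxcl14 was higher, going from 0, 6.60 and 11.2 CPM to 25.0, 30.4 and 45.0 CPM, and every library of day 14 was above every library of day 5 (2.54, SE 0.61, adjusted p = 0.0208). In these delayed libraries the fibroblast marker sum was 17 to 3580 CPM at day 5 and 1598 to 16066 CPM at day 14, and that of Schwann cell markers 154 to 423 and 446 to 2650 CPM, with 4 of 8 Schwann cell markers and 1 of 5 fibroblast markers tested higher at day 14. Macrophage markers went from 361 to 9731 CPM to 626 to 5582 CPM. The part of these markers in the values of Cxcl3 and Cxcl14 was not tested. After immediate repair Cxcl14 did not pass (-0.25, SE 0.77). The interaction of repair and day gave 2.79 (SE 1.01, unadjusted p = 0.00969, adjusted p = 0.84), and 0 of 9 members were called in it (0% of 10923 genes, 524 at an unadjusted p under 0.05 with 2 members, and 0 members by DESeq2).

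Single libraries set some values of the Schwann fraction. Without delayed replicate 1 of day 14, which held 1522 CPM of Cxcl1, 1264 CPM of Cxcl2, 721 CPM of Cxcl5 and 76.9 CPM of Cxcl12, Cxcl1 (-1.55, edgeR adjusted p = 0.0289, against -0.70 with it) and Cxcl2 (-1.95, adjusted p = 0.0265, against -1.55 and an adjusted p of 0.0515) also passed. Cxcl2 passed as well with DESeq2 (-1.51, adjusted p = 0.00669) and without any 1 of 3 delayed libraries of day 5, replicates 1, 2 and 5 (adjusted p from 0.0366 to 0.0463). The 4 libraries with the highest Cxcl12, immediate replicates 1 and 7 of day 14 (183 and 138 CPM), delayed replicate 1 of day 14 and immediate replicate 1 of day 5 (72.1 CPM), were 4 of the 5 with the highest Cxcl5, at 238, 143, 721 and 411 CPM, and the fifth, delayed replicate 9 of day 5, held 177 CPM of Cxcl5 and 25.0 CPM of Cxcl12. Their fibroblast marker sums were 5041, 12697, 3896 and 8353 CPM, within a range of 17 to 16066 CPM over the 31 libraries. The part of fibroblast RNA was not tested. The log2 fold change of Cxcl10 was 1.30 (SE 0.36, adjusted p = 0.0561) after immediate and 0.78 (SE 0.34, adjusted p = 0.145) after delayed repair, and the first passed with DESeq2 (adjusted p = 0.0064). Cxcr4, the Cxcl12 receptor, was lower at day 14 in both repair groups, at -1.37 (SE 0.25, adjusted p = 0.00863) and -1.31 (SE 0.36, adjusted p = 0.0367), as were the B cell homing receptor Cxcr5 after immediate repair (-1.41, SE 0.38, adjusted p = 0.0485) and Pf4 after delayed repair (-4.20, SE 0.81, adjusted p = 0.0106).

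Macrophages and Schwann fraction were compared within animals, over the 16 animals of day 5 and the 15 of day 14 that gave both. Cxcl1, Cxcl2 and Cxcl3 were higher in macrophages at both days, whereas the side on which Cxcl5 and Cxcl10 were higher depended on the day, and Cxcl16 was higher in the Schwann fraction at day 5. Of 8 members tested at day 5, 5 were lower in the Schwann fraction and 1 higher (background 31.9% of 10074 genes lower and 32.7% higher), and of 9 at day 14, 3 were lower and 3 higher (29.3% of 10596 genes lower and 34% higher). Cxcl1, Cxcl2 and Cxcl3 were lower in the Schwann fraction of 16 of 16 and 15 of 15 animals. Their log2 fold changes at day 5 were -3.20 (SE 0.33), -3.85 (SE 0.43) and -3.13 (SE 0.47) and at day 14 -2.69 (SE 0.26), -4.18 (SE 0.23) and -3.24 (SE 0.24), with edgeR adjusted p of at most 1.2e-05. For Cxcl2 the 2 kinds of library did not overlap at either day, as for 15.2% and 16.3% of all genes. The share of all genes that went 1 way in every animal was not counted.

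Cxcl16 was higher in the Schwann fraction of all 16 animals at day 5 (1.40, SE 0.11, edgeR adjusted p = 2.61e-09). It was at 991 to 2472 CPM there against 287 to 843 CPM in macrophages, without overlap (15.2% of genes). At day 14 the ranges coincided, at 396 to 1081 and 346 to 873 CPM (-0.02, SE 0.13, adjusted p = 0.88, and 0.34, adjusted p = 0.0153, with library size scaling). Cxcl10 was lower in the Schwann fraction at day 5 (-1.23, SE 0.29, adjusted p = 0.00109, lower in 13 of 16 animals) and higher at day 14 (0.66, SE 0.21, adjusted p = 0.0104, higher in 12 of 15). Those calls were lost in delayed animals alone at day 5 (-0.64, adjusted p = 0.14) and in immediate animals alone at day 14 (0.32, adjusted p = 0.323). Cxcl5 was lower at day 5 (-3.01, SE 0.93, adjusted p = 0.00862, lower in 13 of 16), a call lost without the animal as a block (-1.18, adjusted p = 0.151) and in immediate animals alone (-3.82, adjusted p = 0.124). At day 14 it was higher (2.32, SE 0.55, adjusted p = 0.00131, higher in 14 of 15), a call lost in delayed animals alone (1.95, adjusted p = 0.0941). Cxcl14 was higher at day 14 (1.66, SE 0.31, adjusted p = 0.000138), in 14 of 15 animals.

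A test of the difference between the days, added after the data were seen, called 3 of 9 members (background 5.25% of 11156 genes above 0 and 10.4% below), and Cxcl14 passed with DESeq2 alone (1.64, adjusted p = 0.0282). The log2 difference between Schwann fraction and macrophages was greater at day 14 by 5.32 for Cxcl5 (SE 1.11, edgeR adjusted p = 0.00106) and by 1.89 for Cxcl10 (SE 0.37, adjusted p = 0.000603), and for Cxcl16 it fell by 1.43 (SE 0.17, adjusted p = 8.57e-07). The sorted-cell kit kept no strand, so in these libraries reads of Cxcl16 and Zmynd15 over their shared 552 bases cannot be told apart. Cxcl10 lies within the span of the gene Art3, and whether exons of the 2 share bases was not established here. Transcripts of Cxcl2 and Cxcl3 share 126 stretches of 50 bases, 5.84% of those of Cxcl2, and the division of such reads between the genes is uncertain.

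Receptors and enzymes were compared between the cell types too. Over all genes, 32.7% were higher and 31.9% lower in the Schwann fraction at day 5, and 34% and 29.3% at day 14. Of 5 receptors tested at day 5, 3 were higher there, namely Cxcr4 (1.22, SE 0.15), Cxcr3 (2.80, SE 0.90) and Cxcr5 (9.91, SE 0.73). Of 6 at day 14, Cxcr5 (8.73, SE 0.57) and Cxcr7 (4.44, SE 0.61) were higher. The dipeptidase Dpp4, which truncates Cxcl10 and Cxcl12, was higher by 7.15 (SE 0.55) and 6.36 (SE 0.37), and both sheddases were lower, Adam10 at -0.40 (SE 0.10) and -0.39 (SE 0.12) and Adam17 at -1.33 (SE 0.11) and -1.28 (SE 0.11). The platelet and macrophage ligands Pf4 (-4.18, SE 0.51, and -5.59, SE 0.43) and Ppbp (-4.85, SE 0.80, and -3.28, SE 0.64) were lower. Each of these passed in edgeR. In the same libraries 7 of 8 dendritic cell markers at day 5 and 6 of 8 at day 14, where 1 was lower, and 7 of 7 and 8 of 8 Schwann cell markers tested were higher in the Schwann fraction. Over all libraries of day 14 the fibroblast marker sum was 944 to 16066 CPM in the Schwann fraction and 25.6 to 1228 CPM in macrophages. At day 5 the dissociation response genes summed to 5422 to 21809 and 5135 to 9245 CPM. The part of these genes in the differences of the members was not tested.

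**Figure D4:**
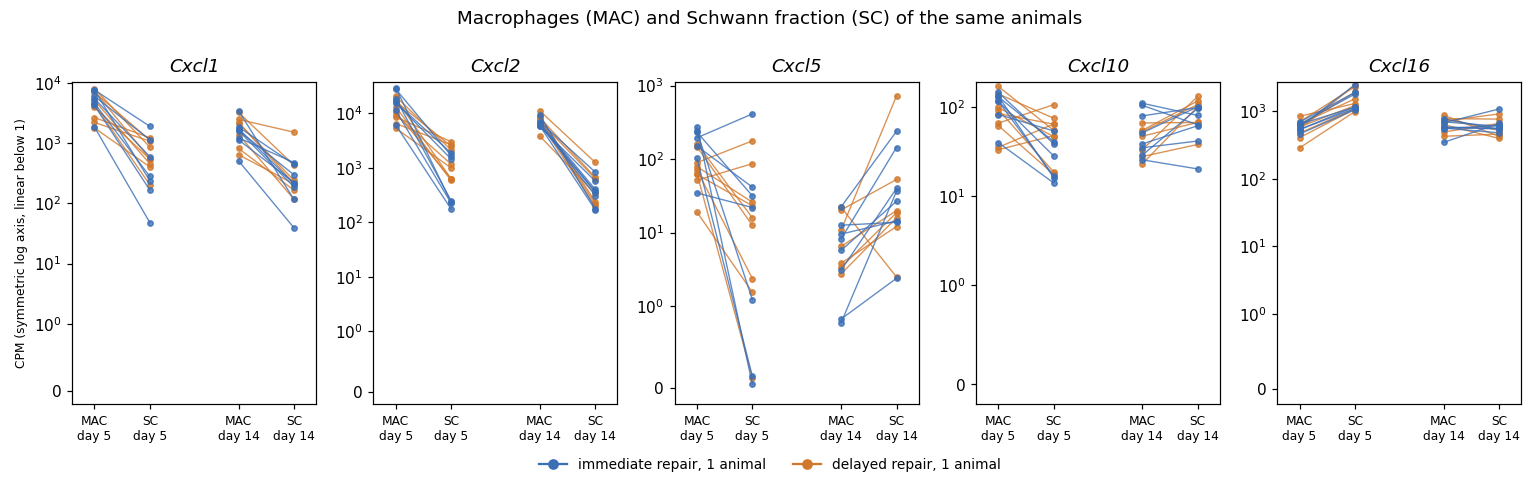
Levels of 5 members in macrophages (MAC) and Schwann fraction (SC) of the same animals at day 5 (16 animals) and day 14 (15 animals), in CPM on a symmetric log axis that is linear below 1, with 1 line per animal, blue for immediate and orange for delayed repair. Cxcl1 and Cxcl2 fall from left to right in every animal, Cxcl16 rises in all 16 animals of day 5, and the lines of Cxcl5 slope down in 13 of 16 animals at day 5 and up in 14 of 15 at day 14.

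Comparisons of males with females, with repair in the model, were added after the levels had been seen. In macrophages of day 5, Cxcl1, Cxcl2 and Cxcl3 were higher in males, 3 of 7 members tested, where 11.3% of 8409 genes were higher and 13.8% lower in males. Cxcl3 was 2428, 3902 and 5736 CPM in 8 males and 908, 1426 and 2203 CPM in 9 females, and every male was above every female, a separation in either direction found for 3.5% of these genes (1.27, SE 0.12, edgeR adjusted p = 2.29e-06). Cxcl2 was 13250, 18847 and 29763 CPM in males and 5370, 9554 and 18033 CPM in females (0.91, SE 0.19, adjusted p = 0.00195). Cxcl1 was 4242, 7232 and 8088 CPM against 1793, 3967 and 5510 CPM (0.86, SE 0.21, adjusted p = 0.00579). Both overlapped between the sexes. Cxcl5 did not pass (0.25, SE 0.37). In the same libraries the sum of the 12 NF-kB inducible genes was 15644 to 29356 CPM in males and 6752 to 21552 CPM in females, of 8 macrophage markers 29169 to 36621 and 16913 to 31204 CPM. For 10 dissociation response genes it was 5135 to 7946 and 5428 to 9245 CPM. Their part in the difference was not tested. The labels give no date of surgery or sorting, so a difference of sex and one of handling cannot be told apart.

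By day 14 these genes did not pass between the sexes in macrophages. Cxcl1 was 510, 1309 and 2482 CPM in 8 males and 818, 1859 and 3473 CPM in 7 females (-0.68, SE 0.33, unadjusted p = 0.0585 in edgeR), lower in males by its fitted value. Cxcl2 was 3838, 6661 and 11157 CPM against 6264, 6994 and 9389 CPM. Cxcl3 was 231, 976 and 1805 CPM in 8 males and 425, 1174 and 1750 CPM in 7 females, 0 of 8 members passed in edgeR (0 with DESeq2, and Cxcl14 alone, at -1.01, had an unadjusted p under 0.05), and 0.0466% of 8589 genes were called. The change of the male to female difference from day 5 to day 14 was -1.54 for Cxcl1 (SE 0.41), -1.03 for Cxcl2 (SE 0.27) and -1.46 for Cxcl3 (SE 0.38) on the log2 scale, with edgeR adjusted p of 0.0491, 0.0467 and 0.0451 (background 0.793% of 8949 genes above 0 and 0.726% below). These calls lay at the threshold and were lost with filterByExpr (adjusted p from 0.063 to 0.0665), with no filter, and without 20, 20 and 21 of the 32 libraries, each left out alone. Within females alone the fall from day 5 to day 14 did not pass for these genes after immediate repair (-0.92 for Cxcl1, -0.81 for Cxcl2, -1.04 for Cxcl3, adjusted p from 0.154 to 0.202), while in males alone it was -2.43, -1.81 and -2.04 (adjusted p from 0.000971 to 0.00209). After delayed repair, Cxcl1 passed in males (-1.97, adjusted p = 0.0234) and not in females (-0.52, adjusted p = 0.475), and Cxcl3 in females had the opposite sign (0.33, adjusted p = 0.295).

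**Figure D5:**
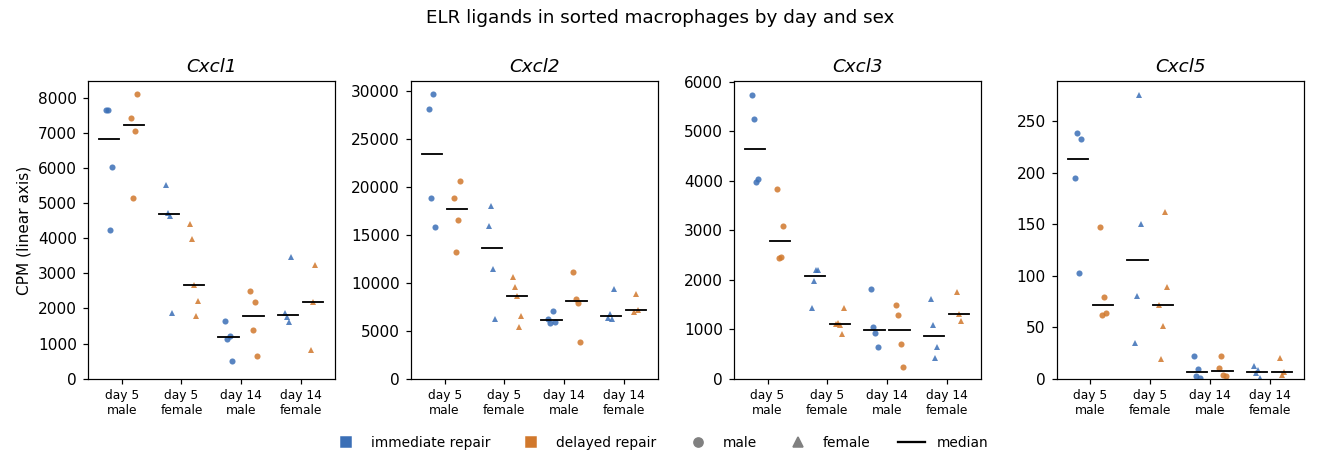
Levels of the ELR ligands in macrophage libraries by day and sex, in CPM on linear axes, with immediate repair in blue, delayed repair in orange, circles for males, triangles for females and bars for medians. Males of day 5 lie above females of day 5 for Cxcl3 without overlap, and for Cxcl5 the levels of day 14 are below most of day 5 in both sexes.

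In the Schwann fraction of day 5, Cxcl16 was higher in males, at 1150, 1911 and 2472 CPM against 991, 1094 and 1527 CPM in females (0.67, SE 0.14, edgeR adjusted p = 0.0102), the 1 member of 8 tested that passed (5.36% of 9604 genes higher and 1.66% lower in males). The ranges overlapped. In those libraries dissociation response genes summed to 9197 to 21809 CPM in males and 5422 to 10824 CPM in females, and dendritic cell markers to 22494 to 39948 and 17862 to 28543 CPM, and their part was not tested. No member was called between the sexes in the stump of day 5 (0.0654% of 12229 genes called, 1 member at an unadjusted p under 0.05, 0 members with DESeq2) or in the Schwann fraction of day 14 (0.0391% of 10226 genes, 1 and 0 members). The change of the sex difference between days in the Schwann fraction called 0 of 9 members in edgeR (0.165% of 10923 genes), with 2 at an unadjusted p under 0.05, and DESeq2 called those 2, Cxcl14 (2.88, adjusted p = 0.0339) and Cxcl16 (-0.86, adjusted p = 0.0227).

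Whether the effect of delay at day 5 differed between the sexes was tested as an interaction, and edgeR called 0% of 12229 genes in the stump, 0% of 8409 in macrophages and 0% of 9604 in the Schwann fraction, with 272, 352 and 256 genes at an unadjusted p under 0.05 and 0, 3 and 5 genes called by DESeq2, 0 of them members. Members with an unadjusted p under 0.05 in edgeR were Cxcl14 in the stump (1.76, SE 0.82) and Cxcl10 in the Schwann fraction (1.91, SE 0.63). For Cxcl12 in the stump the interaction was 0.37 (SE 0.52) and did not pass.

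The genes whose log2(CPM + 1) levels ran most closely with each member were listed, as a description, over the 32 macrophage libraries and the 16 stump libraries. These libraries span both repair groups and sexes and, for macrophages, both days, so differences between those groups enter each r. Cxcl9 in macrophages and Cxcl3 in the stump had too few counts to be listed. In macrophages (8949 genes) Cxcl1 ran with Tnf (Pearson r = 0.905, Spearman rho = 0.906), Cxcl2 with Plaur, the urokinase receptor (r = 0.945, rho = 0.924). Cxcl3 ran with Csf3, which encodes G-CSF (r = 0.901, rho = 0.891), and Cxcl5 with Mmp9 (r = 0.847, rho = 0.818). Cxcl10 ran with the interferon-induced Ifit1 (r = 0.875, rho = 0.884), Cxcl12 with the matrix proteoglycan Bgn (r = 0.86, rho = 0.838). Cxcl14 ran with the tetraspanin Cd9 at a lower likeness (r = 0.673, rho = 0.614) and Cxcl16 with its overlapping neighbour Zmynd15 (r = 0.907, rho = 0.847). In the stump (12229 genes) the closest genes were Adora2b for Cxcl1, Irg1 for Cxcl2, and the decoy receptor Il1r2 for Cxcl5. They were the interferon-induced genes Iigp1 for Cxcl9 (r = 0.96, rho = 0.90) and Cmpk2 for Cxcl10 (r = 0.948, rho = 0.941), Tmem176a for Cxcl12 (r = 0.945, rho = 0.924), Isyna1 for Cxcl14 and Ppp6r3 for Cxcl16 (r = 0.932, rho = 0.938). Without the 2 libraries farthest from the median of the member, r stayed between 0.596 and 0.942 for these closest genes.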

How the data were processed

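RNA was measured in 79 libraries from 32 mice. Per the labels and the study's methods, the authors trimmed reads with cutadapt 1.8, mapped them to mm10 with TopHat2 2.1.1 and derived gene values with Cufflinks 2.2.1 and Cuffnorm, and stump libraries were additionally cleared of ribosomal reads. The deposited values are estimated counts per gene, of which 0.80% to 1.26% in a library were not whole, and they were rounded here. No column was left out, and no pair of libraries was identical (0 of 3081).

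Genes reaching 5 CPM in 6 or more libraries of a comparison entered edgeR 4.0.16 (quasi-likelihood F test after TMM, R 4.3.3), with Benjamini-Hochberg adjustment over all genes tested and a threshold of 0.05. The SE was taken as the fitted log2 value over the root of its F statistic. Delayed and immediate repair, and the 2 days, were compared within a kind of library, sorted cell types within animals (the animal as a block), and repair by day or by sex as interactions. Levels are CPM from TMM-scaled library sizes, with 1 scaling for sorted cells and 1 for the stump. Lengths are unions of annotated exons. Likeness is Pearson's r of log2(CPM + 1), and the closest gene to each member is named. Every member is described, and other genes were named from the lists of ligands, receptors and enzymes. Alternatives were DESeq2 1.42.0, library size scaling, other filters, sex as a covariate, a replicate block, 1 repair group, and leaving out each library. Tests were tried on simulated counts. For the stump comparison, 82.5% of genes changed 2-fold and 98.9% of those changed 4-fold were recovered, and for the days of the immediate Schwann fraction, the lowest of 11 comparisons simulated, only 16.5% and 66.3%. Depth sets the counting error alone, which is what floors of 3 counts cover, and not the spread between animals. The members and lists were chosen with earlier results of these data known. The labels name a mouse for each library, so replicates of a group are separate animals.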

Additional observations from a re-analysis of the deposited data

Results flagged for a closer look

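Of 90 groups of libraries (9 members in 10 groups), 20 held 1 library far from the others by Dixon's ratio. The limit used is passed by about 1 in 20 groups of normally distributed values. The CPM were not log-transformed and each flagged library was the highest of its group, so that rate cannot be taken as the chance rate here. Delayed replicate 1 of the Schwann fraction at day 14 stood out for 4 members, at 1522 CPM of Cxcl1, 721 CPM of Cxcl5, 76.9 CPM of Cxcl12 and 45.0 CPM of Cxcl14. Immediate replicate 1 of the Schwann fraction stood out at day 5 with 411 CPM of Cxcl5 and 72.1 CPM of Cxcl12, and immediate replicate 1 of day 14 with 96.9 CPM of Cxcl14. Delayed replicate 9 of the Schwann fraction at day 5 held 177 CPM of Cxcl5 and 25.0 CPM of Cxcl12. Other libraries of the Schwann fraction stood out for Cxcl3 (621 CPM, day 5 immediate replicate 4), Cxcl14 (154 CPM, day 5 immediate replicate 5) and Cxcl16 (1081 CPM, day 14 immediate replicate 5). In macrophages, immediate replicate 8 of day 14 was the highest of its group for Cxcl1 (3473 CPM), Cxcl2 (9389 CPM) and Cxcl14 (15.8 CPM), and immediate replicate 4 of day 5 for Cxcl12 (45.9 CPM). In the stump, immediate replicate 4 was the highest for Cxcl2 (56.8 CPM) and Cxcl12 (542 CPM), delayed replicate 1 for Cxcl3 (10.2 CPM) and delayed replicate 5 for Cxcl9 (59.4 CPM).

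The difference between Schwann fraction and macrophages changed between day 5 and day 14 for Cxcl5 (by 5.32 on the log2 scale), Cxcl10 (1.89) and Cxcl16 (-1.43). The difference between males and females in macrophages changed between the days for Cxcl1 (-1.54), Cxcl2 (-1.03) and Cxcl3 (-1.46). The changes by sex lay at the threshold (adjusted p from 0.0451 to 0.0491) and were lost with either other filter on low counts and without 20, 20 and 21 of the 32 libraries, each left out alone. Both were tested as interactions in edgeR, chosen after the levels had been seen.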

How the results depend on the processing

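Of the values of members called, 146 kept direction and call and 5 lost the call under the alternatives planned, and 538 kept it and 66 lost it when 1 library or animal was left out. The cause was not tested for any change given here. With DESeq2 the number of genes called between repair groups was 17 in macrophages at day 5 and 14 and 3 in the Schwann fraction at day 5 and 14. It was 891, 950 and 1514 between days in delayed macrophages and in the immediate and delayed Schwann fraction, 9 and 9 for repair by day in macrophages and Schwann fraction, and 3 and 5 for repair by sex in macrophages and Schwann fraction. For the comparisons added later it was 90, 10 and 1151 between sexes in the stump, in macrophages at day 14 and in the Schwann fraction at day 5, 2659 for cell type by day, and 460 and 417 for sex by day in macrophages and Schwann fraction. DESeq2 called 2 members between days in the immediate Schwann fraction and 2 for sex by day there. With sex as a covariate 8 genes, 1 of them a member, were called in macrophages at day 5, and 1 gene in the Schwann fraction. With library size scaling 1484 genes were called between days in immediate macrophages, 0 for repair by day in macrophages, 6 for sex by day in the Schwann fraction, and 2 members between days in the immediate Schwann fraction. Under that scaling the median of all genes moved most in the Schwann fraction against macrophages at day 14, to 0.40 from 0.0403. For sex by day, no filter gave 36 genes and 0 members in macrophages and 9 genes in the Schwann fraction, and filterByExpr 52 genes and 0 members in macrophages. For SC versus MAC, day 5, immediate animals alone gave 4020 genes, and for SC versus MAC, day 14, delayed animals alone gave 4436.

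Same-numbered libraries of the repair groups came from different animals of the same sex: 1 of 7 pairs in the stump, 7 of 8 and 6 of 7 in macrophages and 3 of 7 and 3 of 7 in the Schwann fraction had deviations correlated above 0.1, and 1, 3, 5, 2 and 1 libraries correlated best with their own number. With the replicate block 12 genes, 1 of them a member (Cxcl3, -0.77, edgeR adjusted p = 0.0158), were called in macrophages at day 5, and Cxcl14 turned to -0.11 in the stump and to 0.066 in macrophages. Without the block of animals, Cxcl12 (1.50, edgeR adjusted p = 0.0314) and Cxcl9 (1.68, adjusted p = 0.0444) passed between cell types at day 14. Cxcl14 passed at day 5 (1.35, adjusted p = 0.0351).

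Signs turned for members that were not called. Between repair groups in the stump, males alone gave -0.18 for Cxcl2 and -0.50 for Cxcl14. In macrophages at day 5, males alone gave 0.11 for Cxcl1 and 0.069 for Cxcl16, females alone 0.26 for Cxcl14, and library size scaling 0.014 for Cxcl16. Between days in delayed macrophages, females alone gave 0.33 for Cxcl3. Between cell types, delayed animals alone gave -0.53 for Cxcl14 at day 5 and -0.073 for Cxcl9 at day 14, immediate animals alone 0.16 for Cxcl12 and 0.10 for Cxcl16 at day 14, and library size scaling 0.28 and 0.34.

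When libraries were left out one at a time, 1 to 3 members were called in the stump, with Cxcl2 from -0.12 to 0.83. In macrophages at day 5, 1 to 3 genes were called, with Cxcl14 from -0.22 to 0.15 and Cxcl16 from -0.15 to 0.011, and in the Schwann fraction 0 to 1. Between days in the Schwann fraction, 222 to 638 genes and 1 to 2 members were called after immediate and 359 to 1175 genes and 3 to 5 members after delayed repair. Between cell types, Cxcl14 at day 5 ran from -0.16 to 0.31 and, at day 14, Cxcl12 from -0.35 to 0.21 and Cxcl16 from -0.095 to 0.045. Between sexes in the Schwann fraction at day 5, 341 to 815 genes were called. For sex by day 10 to 497 genes and 0 to 3 members were called in macrophages and 1 to 239 genes and 0 to 1 members in the Schwann fraction.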
